A study of Mus musculus with 6 samples.

Results

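The genes of the REST and CoREST repressor complex were followed from embryonic stem cells (ESCs) to neural precursor cells (NPCs). A list of 6 genes was set by Ensembl identifier: Rest, the corepressor genes Rcor1 and Rcor2, the demethylase gene Kdm1a and the deacetylase genes Hdac1 and Hdac2. Rows with these identifiers were found for 5 of the 6, out of 17144 genes on the arrays, and Hdac1 (ENSMUSG00000028800_at) was not analysed here. RNA was measured on Affymetrix mouse arrays, with 3 biological replicates of each cell type and 1 array per replicate. The ESCs were wild type cells of the blastocyst-derived line V6.5, of the 129SvJae/C57B6 F1 background, grown in serum with LIF. The NPCs were also wild type and were made in vitro from these ESCs, then grown in N3 medium with bFGF and EGF. Both groups thus go back to the same cell line, no agent or allele separates them other than the culture and the differentiation, and the age of the cultures is not given in the labels. The deposited values are robust multi-array average (RMA) values, which are background corrected, normalized between arrays and summarized per gene on the log2 scale, so that a difference of 1 is a 2-fold change.

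REST is a zinc finger repressor that binds a long DNA element at many neuronal genes and keeps them silent in cells that are not neurons. It recruits corepressors, among them the CoREST proteins encoded by Rcor1 and Rcor2, which act as scaffolds for the lysine demethylase KDM1A and the deacetylases HDAC1 and HDAC2. These enzymes remove methyl and acetyl groups from histones. The complex is well known in ESCs and in neural progenitors, where REST is lowered as neurons form, while the deacetylases and KDM1A also work in other complexes without REST.

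The promoter windows of the called members that RefSeq lists (GRCm38.p6, 250 bases before to 50 after the start of the gene) are shown so that the genes that moved in opposite directions can be set beside each other. Windows were matched by symbol for 4 of the 6 genes, and Rest and Hdac1 were not matched. The windows lie at chr19:7267144-7267443 on the plus strand for Rcor2, at chr4:136602674-136602973 on the minus strand for Kdm1a and at chr10:36974294-36974593 on the plus strand for Hdac2. They are written 5′ to 3′, with matches to any of 6 short motifs in capitals.
Rcor2: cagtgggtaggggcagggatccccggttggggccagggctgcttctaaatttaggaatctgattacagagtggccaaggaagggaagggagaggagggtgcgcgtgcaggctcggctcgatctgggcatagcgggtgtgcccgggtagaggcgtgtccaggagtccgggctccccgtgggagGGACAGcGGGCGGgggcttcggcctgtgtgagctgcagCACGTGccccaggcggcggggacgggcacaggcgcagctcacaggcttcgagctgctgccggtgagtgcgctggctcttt
Kdm1a: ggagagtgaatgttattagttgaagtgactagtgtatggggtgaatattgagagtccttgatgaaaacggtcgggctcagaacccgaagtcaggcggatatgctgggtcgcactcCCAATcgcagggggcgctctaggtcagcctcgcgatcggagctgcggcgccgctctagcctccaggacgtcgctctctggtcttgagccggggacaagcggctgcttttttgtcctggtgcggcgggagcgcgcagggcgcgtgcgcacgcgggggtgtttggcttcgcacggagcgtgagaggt
Hdac2: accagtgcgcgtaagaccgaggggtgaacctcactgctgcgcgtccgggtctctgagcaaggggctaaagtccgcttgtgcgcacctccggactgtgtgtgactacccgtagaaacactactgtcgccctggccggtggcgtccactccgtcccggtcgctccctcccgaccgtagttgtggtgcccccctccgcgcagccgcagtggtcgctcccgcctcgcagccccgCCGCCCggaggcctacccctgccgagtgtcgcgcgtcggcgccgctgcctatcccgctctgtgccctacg
The motifs were searched on both strands. They were the GC box GGGCGG (in 35.7% of 32851 promoter windows of this length), CCAAT (37.4%), the E-box CACGTG (7.15%), parts of the left and right arms of the REST element, CAGCACC (7.14%) and GGACAG (22.2%), and the SOX2 motif CTTTGTT (5.85%). None of these motifs contains another. The Rcor2 window, with a GC content of 67.3%, held 1 GC box, 1 E-box and 1 match to GGACAG, which began 68 bases before the start of the gene. The Kdm1a window, at 61.3% GC, held 1 match to CCAAT and no other. The Hdac2 window, at 69.7% GC, held 1 GC box on the reverse strand. In the Rcor1 window, which is not shown and has a GC content of 69.3%, there were 6 GC boxes and 1 match to CCAAT. No window held CAGCACC or CTTTGTT. A match is a description of the letters and not a binding site.

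Of the 5 members measured, Rest, Kdm1a and Rcor2 fell from ESCs to NPCs, Hdac2 rose, and Rcor1 did not pass the test. A gene was called where limma gave an adjusted p under 0.05 (Benjamini-Hochberg over all genes) and the means differed by more than 1.5-fold. This rule called 4 of the 5 members, beside 34.1% of all genes. It called 3 of the 5 as lower in NPCs, beside 18.7% of all genes, and 1 as higher, beside 15.4%. For 3 members all NPC arrays lay below all ESC arrays, as at 32.6% of all genes, and for 1 member all lay above, as at 26.1%. With so few members these shares are a description. The median difference of NPCs from ESCs was -0.74 on the log2 scale over the 5 members and -0.036 over all genes. As the arrays measured RNA from whole cultures, fewer cells of a type and less RNA per cell cannot be told apart.

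**Figure D1:**
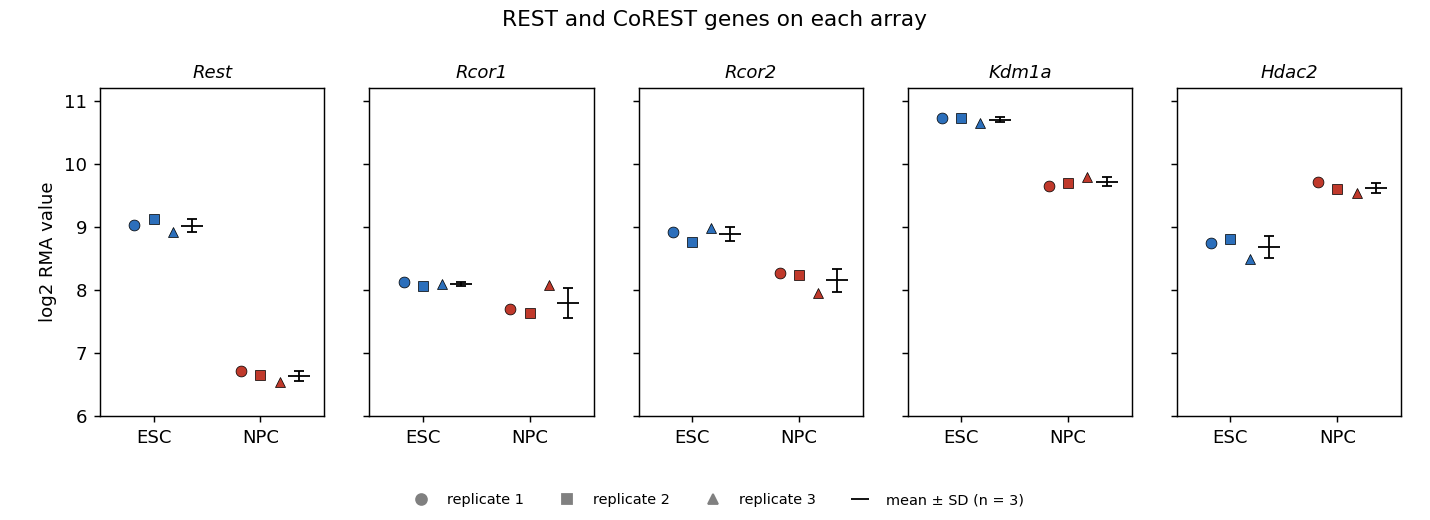
Log2 RMA value of each measured member on every array, with ESCs in blue, NPCs in red, a symbol for each replicate, and black bars for the mean ± SD of 3 arrays. The arrays of the cell types do not overlap for Rest, Rcor2, Kdm1a and Hdac2, while NPC replicate 3 lies within the ESC range for Rcor1; heights cannot be compared between genes because each has its own probes.

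Rest (ENSMUSG00000029249_at), the DNA-binding member, changed most. Its log2 values were 9.02, 9.12 and 8.91 in ESC replicates 1 to 3 and 6.71, 6.64 and 6.55 in NPC replicates 1 to 3. Every NPC array lay below every ESC array, with a gap of 2.20 between the closest values, and the arrays of each cell type stood close together. The mean was 9.02 ± 0.10 (SD, n = 3 arrays) in ESCs and 6.64 ± 0.08 (SD, n = 3 arrays) in NPCs. The difference of -2.38 (standard error 0.09, 95% interval -2.60 to -2.17, adjusted p = 1.33e-06 from limma) is a 5.22-fold fall, which left 19.2% of the ESC level on the linear scale. Only 3.36% of all genes, or 576, had a more negative difference. Among the 5 members Rest was the only gene whose fall exceeded 2-fold. In each setting tried the difference lay between -2.44 and -2.23.

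Of the corepressor scaffolds, Rcor2 was called and Rcor1 was not. The exact permutation test of the difference between them could not pass with 3 arrays against 3, so it does not decide whether they differ. Rcor2 (ENSMUSG00000024968_at) has its promoter window shown above. Its log2 values were 8.92, 8.76 and 8.99 in ESC replicates 1 to 3 and 8.28, 8.24 and 7.95 in NPC replicates 1 to 3. All NPC arrays were below all ESC arrays, by at least 0.49, and NPC replicate 3 was the lowest. The difference of means was -0.74 (standard error 0.12, 95% interval -1.01 to -0.46, adjusted p = 0.00148 from limma), which is 1.66-fold. This fall is near the 1.5-fold threshold, and with the medians of the arrays set equal the difference was -0.58 and the gene was no longer called, with an adjusted p of 0.00436 from limma.

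Rcor1 (ENSMUSG00000037896_at) encodes CoREST itself, the scaffold first found with REST. Its log2 values were 8.12, 8.07 and 8.10 in ESC replicates 1 to 3 and 7.70, 7.63 and 8.07 in NPC replicates 1 to 3. The ESC arrays were tightly grouped, with an SD of 0.03 where the median SD of a gene in ESCs was 0.09, while NPC replicate 3 read within the ESC range and the other NPC arrays below it. The difference of means, -0.30 (standard error 0.13, 95% interval -0.59 to 0.0015, adjusted p = 0.0937 from limma), did not pass. The interval reaches from a 1.51-fold fall to no change, so a fall of the size of that of Kdm1a lies outside it. Without NPC replicate 3 the difference was -0.43 with an adjusted p of 0.00155 from limma, still under 1.5-fold.

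The scaffolds were also compared within each array, as the log2 value of Rcor2 minus that of Rcor1. The zero of such a difference has no meaning, because the genes have different probes, but its change between cell types compares how far the genes moved. It was 0.79, 0.69 and 0.89 in ESC replicates 1 to 3 and 0.57, 0.61 and -0.12 in NPC replicates 1 to 3, so that every NPC array was lower. The change was -0.44, and -0.20 without NPC replicate 3. An exact two-sided permutation test gave p = 0.1, which is the smallest value that this test can give with 3 arrays against 3, so unequal change of the scaffolds was not shown. Rest was compared in the same way with each of the other 4 measured members, a choice made after the values were seen. The change of Rest on the log2 scale was -2.09 relative to Rcor1, -1.65 relative to Rcor2, -1.40 relative to Kdm1a and -3.32 relative to Hdac2. The cell types did not overlap in any of the 5 comparisons. Rest enters 4 of these comparisons, so they are not separate results. Among single genes, all NPC arrays lay below all ESC arrays at 32.6% and above them at 26.1%. No such share was computed for differences between genes. The exact permutation p was 0.1 before and after Benjamini-Hochberg adjustment over the 5 comparisons.

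The enzyme genes measured, Kdm1a and Hdac2, moved in opposite directions, while Hdac1 was not analysed. Kdm1a (ENSMUSG00000036940_at), the demethylase also called LSD1, gave log2 values of 10.74, 10.72 and 10.66 in ESC replicates 1 to 3 and 9.65, 9.70 and 9.80 in NPC replicates 1 to 3. Each NPC array was below each ESC array by at least 0.86, which is far more than the SD of 0.04 among ESC arrays and 0.08 among NPC arrays. The difference was -0.99 (standard error 0.08, 95% interval -1.17 to -0.80, adjusted p = 4.83e-05 from limma), a 1.98-fold fall. A more negative difference was found at 11.8% of all genes.

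Hdac2 (ENSMUSG00000019777_at), a class I deacetylase, was the member that rose. It gave log2 values of 8.75, 8.80 and 8.49 in ESC replicates 1 to 3 and 9.71, 9.61 and 9.55 in NPC replicates 1 to 3. No NPC array overlapped an ESC array, and the closest were 0.74 apart. ESC replicate 3 was the lowest array and widened the ESC spread to an SD of 0.17, against 0.08 in NPCs. The difference of 0.94 (standard error 0.11, 95% interval 0.69 to 1.19, adjusted p = 0.000283 from limma) is a 1.92-fold rise, and 10.3% of all genes had a larger one. Neither Kdm1a nor Hdac2 passed a threshold of 2-fold.

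**Figure D2:**
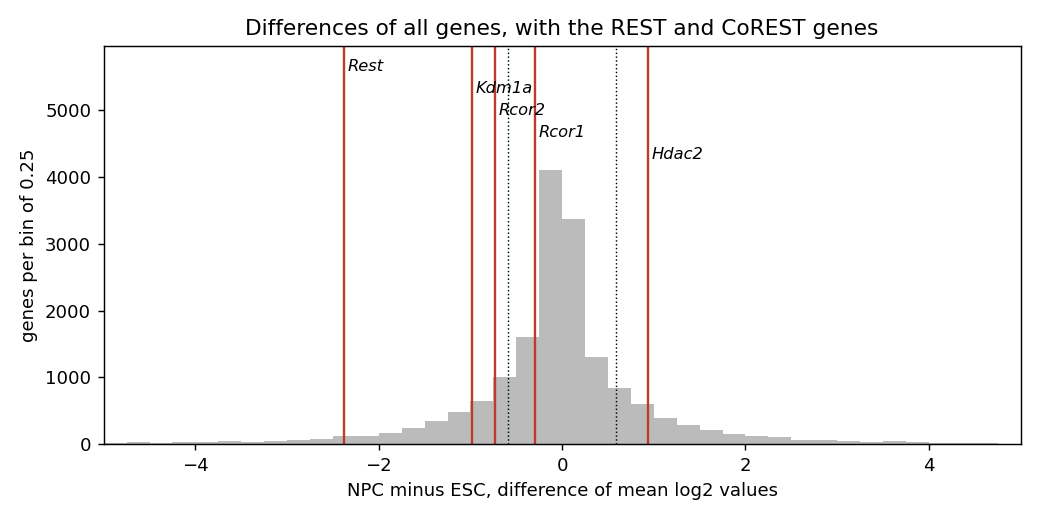
Number of genes (bars, bins of 0.25) by the difference of mean log2 values, NPC minus ESC, over 17144 genes from -5 to 5, with red lines at the 5 members and dotted lines at the 1.5-fold threshold in either direction. Rest lies in the lower tail at -2.38, Kdm1a at -0.99 and Rcor2 at -0.74 lie outside the lower threshold, Rcor1 at -0.30 lies inside it, and Hdac2 at 0.94 lies above the upper threshold.

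NPC replicate 3 stood apart from NPC replicates 1 and 2, so the members were also read in that array alone. At 4% of all genes it was more than 1 away from the mean of these arrays on the log2 scale. None of the 5 members was that far away. Its deviation from that mean was 0.41 at Rcor1, where 20.1% of all genes had as large a deviation, and was -0.31 at Rcor2, -0.13 at Rest, 0.12 at Kdm1a and -0.11 at Hdac2. Against the ESC mean, NPC replicate 3 gave -2.47 at Rest, -0.94 at Rcor2, -0.90 at Kdm1a and 0.86 at Hdac2, and the mean of the other NPC arrays gave -2.34, -0.63, -1.03 and 0.98. At Rcor1 the array gave -0.025, against -0.43 for the mean of the others. Without NPC replicate 3, 4 of the 5 members were called, beside 36.2% of all genes.

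**Figure D3:**
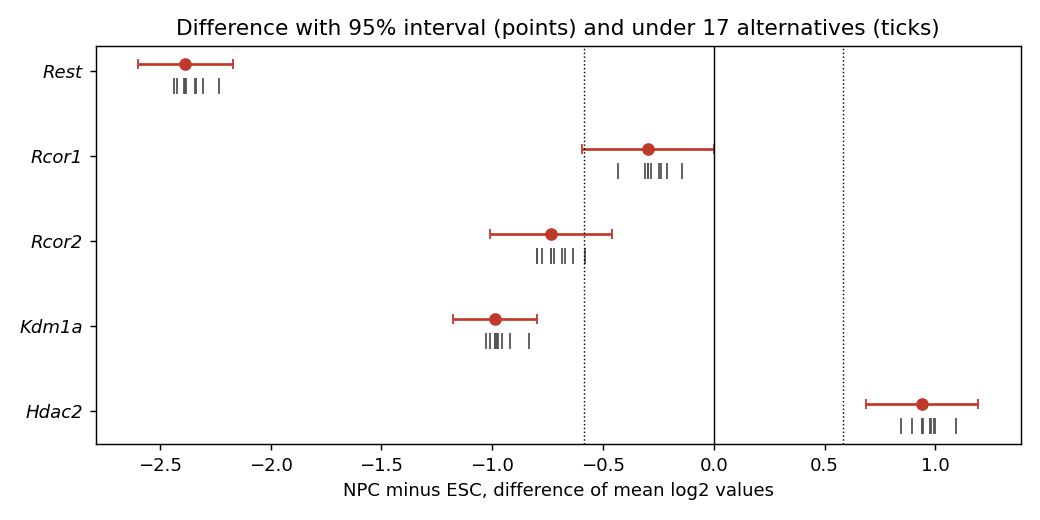
Difference of mean log2 values, NPC minus ESC, for each member, with the 95% interval from limma (red points and bars) and the values under 17 alternative settings (ticks, many at the same place); dotted lines mark the 1.5-fold threshold. No member changed sign, and a tick of Rcor2, at -0.58, lies just inside the threshold.

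Genes with the most similar profiles were sought for each member by the root mean square difference of the 6 log2 values, after the mean of each gene over the 6 arrays was subtracted. The closest genes to Hdac2 were Rab2a, Mib1 and Cttnbp2nl, at 0.0388, 0.0389 and 0.0406 on the log2 scale, with differences between cell types of 0.99 each. Rab2a encodes a small GTPase of membrane traffic and Mib1 a ubiquitin ligase of Notch ligands. For Rest the 3 closest genes lay at 0.0559 to 0.0644 and fell by 2.34 to 2.44 on the log2 scale, and ENSMUSG00000002109 was the closest. The values for the other members were 0.0254 to 0.0321 for Kdm1a, 0.0291 to 0.0452 for Rcor1 and 0.0438 to 0.0620 for Rcor2. The closest gene to Rcor1, ENSMUSG00000042719, read near the ESC level in NPC replicate 3 alone, at 8.78 against 8.33 and 8.30 in the other NPC arrays. The closest genes were chosen by all 6 arrays, so this likeness and the similar differences given for Hdac2 and Rest follow from the choice. None of the 12 genes closest to Rest, Kdm1a, Rcor1 and Rcor2 has a name here.

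Other genes of the pathway were taken from 4 lists with 72 genes, of which 8 could be named on the arrays. The names came from the parts of the study's expression tables that were at hand, which hold mainly genes that rose in NPCs. In the part used of its comparison of ESCs with NPCs, the differences were 0.83 or more. The rise thus chose which genes could be named, and the values that follow are a description with no test. Of 27 partners of REST and CoREST, 5 were named and all 5 were higher in NPCs. Ctbp1, which encodes a corepressor found with CoREST, read 9.14, 9.19 and 9.11 in ESC replicates 1 to 3 and 10.92, 10.87 and 10.75 in NPC replicates 1 to 3. The NPC arrays lay above the ESC arrays by far more than the spread of either cell type, with a difference of 1.70.

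Of the 3 listed genes for small phosphatases that act on REST protein, Ctdsp1 and Ctdspl were named. Ctdsp1 read 7.34, 7.16 and 7.42 in ESC replicates 1 to 3 and 8.44, 8.38 and 8.57 in NPC replicates 1 to 3. Ctdspl read 6.14, 6.16 and 6.26 in ESC replicates and 8.15, 8.18 and 6.97 in NPC replicates, so that NPC replicate 3 deviated by -1.20 from the mean of replicates 1 and 2. Its difference of 1.59 is thus smaller in that array alone, at 0.79 over the ESC mean. Sap18, a subunit of the SIN3 deacetylase complex, differed by 0.90, and Phf21b, related to the CoREST subunit gene Phf21a, by 0.97. Hdac8, another class I deacetylase, was the named gene among 12 listed for deacetylases and other complexes of HDAC1 and HDAC2. It read 4.49, 5.02 and 4.63 in ESC replicates 1 to 3 and 5.72, 5.76 and 5.57 in NPC replicates 1 to 3, a difference of 0.97. Of the 11 genes that recruit CoREST or act on REST, none was named.

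Among 22 neuronal genes known to carry a REST element, 2 were named, and they were higher in NPCs. Bdnf, a neurotrophin gene, read 4.19, 4.51 and 4.43 in ESC replicates 1 to 3 and 6.64, 6.40 and 7.13 in NPC replicates 1 to 3. Gria2, an AMPA receptor subunit gene, read 3.61, 3.60 and 3.57 in ESC replicates and 5.62, 6.22 and 6.81 in NPC replicates. Their differences were 2.34 and 2.63, and for each the NPC arrays lay above the ESC arrays. The other 20 genes of the list could have moved either way and were not analysed here.

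**Figure D4:**
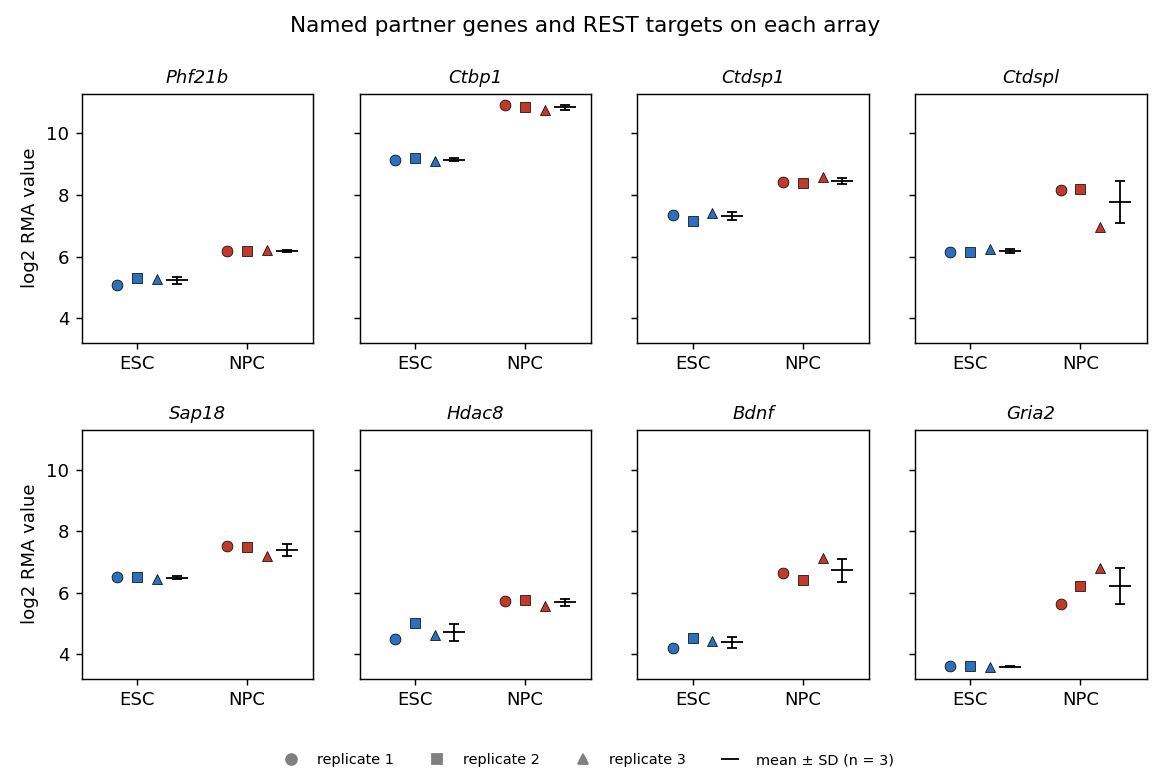
Log2 RMA value on every array for the 6 named partner and deacetylase genes and the 2 named REST targets, drawn as in the plot of the members. All 8 genes are higher in NPCs, which is how they came to be named, and NPC replicate 3 deviates by -1.20 at Ctdspl.

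The labels of the cells were read against marker lists, with the same limit on names. Pou5f1, the pluripotency factor OCT4 and the gene named out of 12 of that list, read 12.42 to 12.46 in ESCs and 3.61 to 3.83 in NPCs. The 7 named neural progenitor markers out of 12, among them Nes, Fabp7 and Vim, had a mean log2 value of 5.04 to 5.09 across ESC arrays and 9.38 to 10.17 across NPC arrays. Named markers of other cell types were also higher in NPCs, but a rise largely decided which of them could be named. The mean was 3.87 to 4.19 in ESCs and 7.13 to 7.48 in NPCs for 4 of 12 neuron markers (Dcx, Map2, Syt1 and Gap43), 5.63 to 5.81 and 7.59 to 8.09 for 3 of 8 astrocyte markers (S100b, Aldoc and Agt), and 4.14 to 4.45 and 6.35 to 7.16 for the 1 of 12 fibroblast markers named, Twist1. The mean over the neuron markers covers opposite deviations in NPC replicate 3. Relative to the mean of NPC replicates 1 and 2, this array was at -1.20 for Dcx and -2.08 for Syt1, and at 0.60 for Map2 and 1.67 for Gap43. Dcx read 3.76 there, close to its highest ESC value of 3.68. These markers and the members Rest, Kdm1a, Rcor2 and Hdac2 differed between the same cell types. Whether the markers bear on the differences of the members was not tested.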

How the data were processed

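RNA of 3 ESC and 3 NPC replicates was hybridized to Affymetrix mouse arrays. The authors extracted the scanned images with GeneChip Operating Software and deposited log2 RMA values, made with an updated probe annotation (BrainCDF) that gives 1 value per Ensembl gene. The annotation version and the build behind it were not given in the sources used here. The table has 17208 rows, of which 64 control probe sets were left out. No further filter or scaling was applied. The number of arrays limits the precision.

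Groups and replicate numbers came from the sample labels. NPCs were compared with ESCs by limma (lmFit and eBayes, all 6 arrays, no covariates), with Benjamini-Hochberg adjustment over 17144 genes and the thresholds of the study. The version of limma was 3.58.1, run under R 4.3.3. Alternatives were the moderated Welch test of the study's methods, other variance models, scalings, filters and fold thresholds, the replicate number as a block, and each array left out. On simulated arrays with 200 changed genes, limma called 75 of 100 genes changed 2-fold and 99 of 100 changed 4-fold, with 4 false calls. Far fewer genes were changed there than were called in the data, so these rates need not hold for the data. Differences within arrays were tested by exact permutation in scipy 1.17.1, and the plots were made in matplotlib 3.10.9 under Python 3.11.15.

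The members and lists were chosen with earlier results of these data known. Member symbols came with their identifiers. The name of Hdac2 was also matched by its 6 values, within 0.0001, to a named row of the study's expression tables, and the other 4 symbols rest on the identifiers. The same match named 2004 genes, mostly ones that rose, and 15136 genes have no name here. The rule for named genes took the members, the genes of the lists and the 3 genes most alike to each member, where a name was at hand. The planned comparison of Hdac2 with Hdac1 was not run, and 2 genes of the lists are not reported here.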

Additional observations from a re-analysis of the deposited data

How the results depend on the processing

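Rest kept its direction and its call in all 17 alternatives, and Rcor1 kept its direction and was called in none. With a threshold of 2-fold the differences of Rcor2 (-0.74), Kdm1a (-0.99) and Hdac2 (0.94) were not called, and 3592 genes were called in place of 5851, with 1615 higher and 1977 lower in NPCs. Centring each array on its median shifted the median difference of all genes by 0.154, to 0.12. Rcor2 was then at -0.58 and not called, and the calls of Rest, Kdm1a and Hdac2 held. Genes higher in NPCs made up 55.6% of the calls there and 45.1% as deposited. Quantile normalization changed no call of a member. When single arrays were left out, the difference lay between -2.44 and -2.33 for Rest, -0.43 and -0.21 for Rcor1, -0.80 and -0.63 for Rcor2, -1.03 and -0.95 for Kdm1a and 0.84 and 1.00 for Hdac2, and 4 members were called each time. The change of Rcor2 relative to Rcor1 lay between -0.57 and -0.20, the smallest without NPC replicate 3. Between 5637 and 6199 genes were called. For Rcor1 the adjusted p from limma ranged from 0.00155, without NPC replicate 3, to 0.379 over the alternatives. Both cell types have replicates numbered 1 to 3. Deviations of same-numbered arrays from their group means correlated across genes at 0.0264, 0.0110 and -0.00645, so no pairing by number was seen in the values. With the replicate block, 5867 genes were called, 2649 higher and 3218 lower. The adjusted p from limma with the block was 5.91e-05 for Rest, 0.105 for Rcor1, 0.00761 for Rcor2, 0.00094 for Kdm1a and 0.00115 for Hdac2, and no call of a member changed. The change of Rcor2 relative to Rcor1 was -0.44 with the block as without it, and exact sign flips over 3 pairs gave p = 0.25, the smallest they can give.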
